A study of Drosophila melanogaster with 2 samples.

Results

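The proteasome subunit genes of Drosophila melanogaster were examined for binding of a tagged Notch-responsive repressor at their promoters. They were taken as the protein-coding genes of the Ensembl annotation whose symbol starts with Prosalpha, Prosbeta, Rpn or Rpt followed by a digit. The rule gave 48 of 13945 protein-coding genes on the 6 major chromosome arms. Of these, 25 encode the core particle and 23 the regulatory particle. By name, 32 are unsuffixed subunits and 16 are paralogues with R or T after the number. The rule used names and no measured value.

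The data are chromatin immunoprecipitation sequencing (ChIP-seq) peak lists from whole embryos aged 0 to 24 hours, with males and females pooled. The animals came from a transgenic line, E(spl)m-beta-GFP, which stably expresses E(spl)mβ-HLH with GFP at its C terminus. E(spl)mβ-HLH belongs to the Hairy/E(spl) class of basic helix-loop-helix proteins, which repress transcription. The E(spl) members of that class act downstream of Notch. There was 1 group of 2 biological replicates, numbered 1 and 3, with no other genotype, treatment or stage. The sources used here do not give the promoter that drives the fusion or the cells that hold it, and whole embryos mix all tissues and ages. The free-text label of both samples speaks of an input control, against their assay title and antibody label. Every value below carries that conflict. The lists give no read counts, so the depth of each sample is unknown. Since no second group exists, no test between conditions was possible, and counts and medians are given beside the same values over all protein-coding genes.

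The 26S proteasome degrades proteins marked with ubiquitin in all eukaryotic cells. Its core particle is a barrel of stacked rings, in which alpha subunits form the gate and 3 kinds of beta subunit, Prosbeta1, Prosbeta2 and Prosbeta5, cut peptide bonds. The regulatory particle caps the barrel. Its base holds the Rpt ATPases, which unfold substrates, and its lid holds Rpn subunits including Rpn11, which removes ubiquitin. Several fly subunits have duplicate genes, and those with a T suffix are known from the male germ line.

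Promoter sequences of 5 members are shown because they carry the contrast described below, with a reproducible summit, a summit in the longer pooled list alone or none, at promoters with and without words of general promoter factors. Each runs 5′ to 3′ on the gene's strand, from 250 bp before to 50 bp after its outermost annotated transcription start site (TSS), in dm6 coordinates, and was read from the RefSeq copy of that assembly. Capitals mark TATCGATA, the word of the promoter factor DREF, or GGTCACACT, the core of the M1BP word, on either strand. Rpn11 and Rpn12 had reproducible summits, Rpn7 had a weaker summit, Prosbeta2 had none and Prosalpha6T is a T-suffixed paralogue with none.
Rpn12 (chr3L:16582778-16583077, plus strand): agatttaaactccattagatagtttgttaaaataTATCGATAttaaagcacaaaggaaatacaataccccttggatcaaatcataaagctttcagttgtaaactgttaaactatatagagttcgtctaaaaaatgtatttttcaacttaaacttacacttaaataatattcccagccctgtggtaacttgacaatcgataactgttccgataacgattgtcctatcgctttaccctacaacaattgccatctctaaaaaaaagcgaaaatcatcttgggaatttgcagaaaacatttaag
Rpn11 (chr2L:5059741-5060040, minus strand): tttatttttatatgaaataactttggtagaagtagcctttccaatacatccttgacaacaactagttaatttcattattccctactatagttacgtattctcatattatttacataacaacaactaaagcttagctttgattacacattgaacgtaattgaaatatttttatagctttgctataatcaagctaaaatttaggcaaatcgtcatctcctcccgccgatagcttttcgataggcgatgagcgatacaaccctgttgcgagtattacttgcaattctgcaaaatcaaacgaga
Rpn7 (chr3R:22462005-22462304, minus strand): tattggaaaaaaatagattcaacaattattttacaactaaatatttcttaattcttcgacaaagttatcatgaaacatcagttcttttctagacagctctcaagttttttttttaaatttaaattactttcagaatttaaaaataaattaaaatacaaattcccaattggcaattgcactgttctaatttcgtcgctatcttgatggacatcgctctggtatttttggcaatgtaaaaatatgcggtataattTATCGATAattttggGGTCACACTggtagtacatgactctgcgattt
Prosbeta2 (chr3L:14999701-15000000, plus strand): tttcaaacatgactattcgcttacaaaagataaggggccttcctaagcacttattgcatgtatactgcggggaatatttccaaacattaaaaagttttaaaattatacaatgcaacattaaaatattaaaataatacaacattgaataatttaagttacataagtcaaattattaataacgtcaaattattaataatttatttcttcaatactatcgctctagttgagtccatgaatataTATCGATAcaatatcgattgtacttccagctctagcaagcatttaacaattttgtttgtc
Prosalpha6T (chr2L:13231789-13232088, plus strand): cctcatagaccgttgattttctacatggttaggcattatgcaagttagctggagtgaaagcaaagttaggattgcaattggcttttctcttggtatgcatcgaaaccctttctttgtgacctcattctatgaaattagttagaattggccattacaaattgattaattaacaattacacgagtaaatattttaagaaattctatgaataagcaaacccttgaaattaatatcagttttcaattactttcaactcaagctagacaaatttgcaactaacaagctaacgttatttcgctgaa

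A summit within 1 kb of a TSS in the authors' reproducible list, which is thresholded on the irreproducible discovery rate (IDR), was found at 15 of the 48 genes, or 31.2%. The share over all protein-coding genes was 27.9%, so the family as a whole lay near the background. The total covers unlike groups. All 15 were unsuffixed subunits (15 of 32, 46.9%), and 0 of 16 paralogues had one. Within the unsuffixed subunits, the regulatory particle had 11 of 18 (61.1%) and the core particle 4 of 14 (28.6%). None of these differences was tested, because members are few, chosen by name and not replicates of a condition.

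The longer pooled list of 30000 peaks, which also holds background, reached 23 of the 48 genes (47.9%), against 48.3% of all protein-coding genes. It added 7 unsuffixed subunits and 1 paralogue. Unsuffixed subunits then stood at 22 of 32 (68.8%), with 9 of 14 in the core and 13 of 18 in the regulatory particle (64.3% and 72.2%). Of the 9 core genes with a pooled-list summit, 5 were thus listed below the reproducible set, as were 2 of the 13 regulatory genes. Paralogues stood at 1 of 16 (6.25%).

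**Figure D1:**
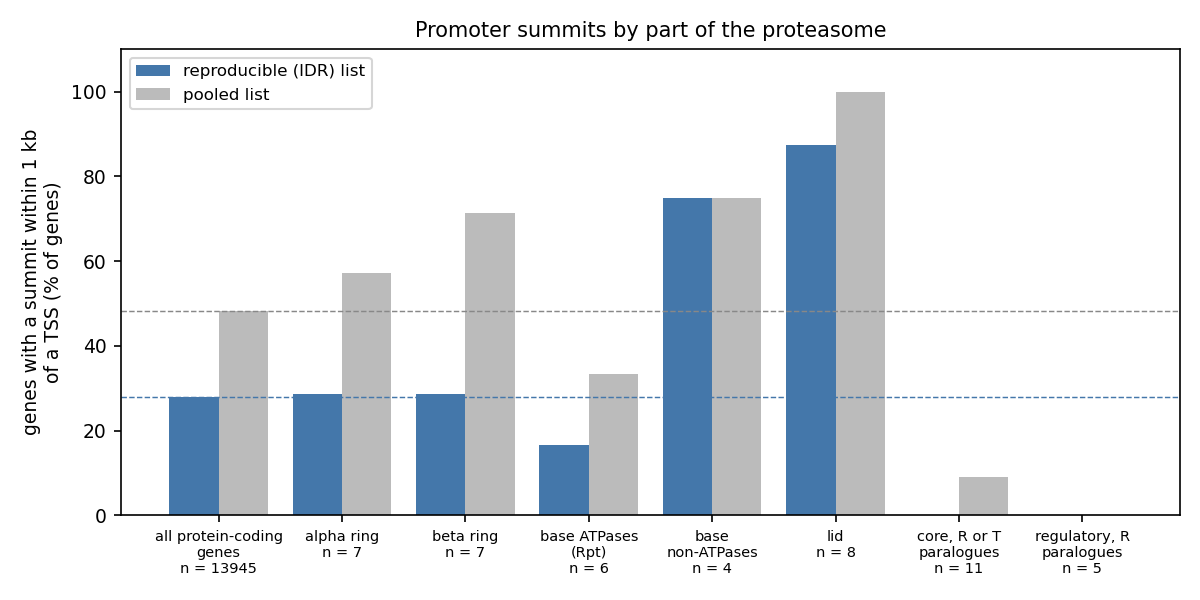
Share of genes (percent, vertical axis) with a summit within 1 kb of a TSS, for all 13945 protein-coding genes, the unsuffixed subunits by part of the particle, and the paralogues. Blue bars are the reproducible list and grey bars the pooled list, dashed lines repeat the values of all genes, and the lid stands at 87.5% and 100% while the base ATPases stand at 16.7% and 33.3%.

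The lid carried the most complete set of summits. Of its 8 unsuffixed subunits, 7 had a reproducible summit (87.5%, against 27.9% of all protein-coding genes). All 8 had a pooled-list summit, against 48.3% of all genes. Rpn3, a scaffold subunit, had the highest signal of the family, 403.9 in the pooled data (2L 19051706 to 19051960). Its summit was 0 bp from the TSS and lay in the 5′ untranslated region of Rpn3. Signal at Rpn3 was 236.1 in replicate 1 and 169.7 in replicate 3, ranks 1660 and 1746 of 30000. The lists are not scaled to each other, so the signals of different lists are compared by rank. Of the 36-base words within 500 bp of the Rpn3 start, 9.73% occur more than once in the assembly. Copies within that stretch are counted, and the Rpn3 promoter holds a sequence repeated in tandem.

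Rpn5, another scaffold of the lid, followed with a pooled signal of 363.9 (3R 5789033 to 5789496). Its signal was 224.6 in replicate 1 and 156.3 in replicate 3, ranks 1851 and 2045. The summit was 228 bp upstream of the Rpn5 start and 119 bp from that of Hat1, the histone acetyltransferase gene on the opposite strand, in whose intron it lay. Both replicates placed Rpn3 and Rpn5 at similar ranks.

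Rpn6, Rpn11 and Rpn9 had pooled signals of 316.9, 316.1 and 294.4. Rpn6 is a lid scaffold that touches the core particle in yeast. It had a signal of 161.3 in replicate 1 and 161.5 in replicate 3, ranks 3236 and 1923, and its summit lay in an intron of Rpn6, 105 bp upstream of an internal start. Rpn11, the deubiquitinase of the lid, whose promoter is printed above, had 155.3 and 156.5, ranks 3476 and 2041. Its summit was intergenic, 132 bp upstream of the start, and it had 2 reproducible peaks within the window. Rpn9 had 182.1 and 153.6, ranks 2650 and 2121. The Rpn9 summit was 107 bp downstream of its start. All 3 genes ranked better in replicate 3 than in replicate 1.

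Rpn12 and Rpn8 completed the reproducible set of the lid. Rpn12 had a pooled signal of 279.7, with 134.5 in replicate 1 and 154.5 in replicate 3, ranks 4361 and 2100. Its intergenic summit was 83 bp upstream of the start, inside the sequence printed above. Rpn8, the partner of Rpn11, had 219.0 in the pooled data, 145.5 in replicate 1 and 85.2 in replicate 3, ranks 3864 and 5739. Its summit was 418 bp upstream, in an intron of Slik. Rpn7, the exception in the lid, had a pooled signal of 124.0 (rank 9297), 74.4 in replicate 1 and 59.7 in replicate 3, ranks 9535 and 9086.

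Among the non-ATPase subunits of the base, 3 of 4 had a reproducible summit (75%, against 27.9% of all protein-coding genes). Rpn13, a ubiquitin receptor, had a pooled signal of 344.8, with 209.1 in replicate 1 and 143.7 in replicate 3, ranks 2098 and 2417. Its summit was 315 bp upstream of the Rpn13 start but 44 bp from that of CtsL1, a cathepsin gene, in the 5′ untranslated region of CtsL1. Rpn2, a large scaffold, had 279.7, with 167.0 and 107.4, ranks 3081 and 4007. Rpn10, also a ubiquitin receptor, had 184.3, with 93.0 and 92.4, ranks 7303 and 5122. It stood just inside the reproducible list, whose lowest signal was 183.6, and Prosbeta3 stood just outside with 179.6. Rpn1, the second large scaffold of the base, had no summit within 1 kb in any list, and its nearest pooled summit was 4820 bp away.

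Of the 6 unsuffixed ATPase genes, 1 had a reproducible summit (16.7%, against 27.9% of all protein-coding genes). The contrast with the rest of the regulatory particle was not tested. In the full lists, replicate 1 reached 2 of the 6 (33.3%, against 49.1% of all genes) and replicate 3 reached 4 (66.7%, against 50.3%). Rpt2 had a pooled signal of 272.1, with 168.7 in replicate 1 and 102.8 in replicate 3, ranks 3034 and 4316. The summit lay in its 5′ untranslated region, and CG13599 starts 81 bp upstream on the other strand. Rpt4 had a pooled-list summit of 137.4 (rank 8266), with 55.4 and 82.6 in replicates 1 and 3, ranks 13277 and 6003. Rpt6 and Rpt3 were listed in replicate 3 alone, with signals of 73.1 (rank 7031) and 41.9 (rank 13576). Rpt1 and Rpt5 had no summit in any list, although Rpt5 starts 42 bp from RanBP3 in a head-to-head pair. The nearest pooled summits to these 2 starts were 1434 and 5309 bp away.

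In the core particle, reproducible summits lay at 2 of 7 unsuffixed alpha and 2 of 7 unsuffixed beta genes. Each share is 28.6%, near the 27.9% of all protein-coding genes. Prosalpha7 was the strongest, with a pooled signal of 317.4, and 188.3 and 118.3 in replicates 1 and 3, ranks 2507 and 3433. Its summit was intergenic, 96 bp upstream. Prosalpha4 had 190.1, with 114.5 and 77.8, ranks 5554 and 6506. The Prosalpha4 summit was 342 bp upstream, in an intron of kat80 and 11 bp from a start of that gene, which encodes a katanin subunit.

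The 3 catalytic beta genes split. Prosbeta5, the chymotrypsin-like subunit, had 276.9 in the pooled data, 150 in replicate 1 and 123.3 in replicate 3, ranks 3660 and 3197. Prosbeta1, the caspase-like subunit, had 241.0, with 128.9 and 106.4, ranks 4671 and 4072. Both summits were intergenic and close to the start, 32 and 16 bp upstream. Prosbeta2, the trypsin-like subunit, had no summit within 1 kb in any list, and the nearest pooled summit was 6974 bp away.

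The other core genes with a pooled-list summit were Prosbeta3, Prosalpha2, Prosalpha6, Prosbeta6 and Prosbeta7. Their pooled signals ran from 89.4 at Prosbeta7 to 179.6 at Prosbeta3. Among the members listed in both replicates, Prosalpha2 had the widest gap in rank, with a signal of 142.0 in replicate 1 (rank 4023) and 30.9 in replicate 3 (rank 18614). Prosalpha5 was listed in replicate 3 alone, with a signal of 67.1 (rank 7834) at 34 bp from a start. Prosalpha3 and Prosbeta4 had none in any list, and Prosalpha3 had 1402 bp to the nearest pooled summit.

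Prosalpha1 also had none, but its start cannot be read like the others. All 966 words of 36 bases within 500 bp of the Prosalpha1 and Prosalpha1R starts occur more than once in the assembly (100%). Reads from such sequence have no single place, and the sources used here do not say how the authors treated them. Of the 48 genes, 43 had 0 recurring words. Leaving out these 2 genes, an alternative chosen after seeing the data, gave 15 of 31 unsuffixed subunits (48.4%) and 0 of 15 paralogues.

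**Figure D2:**
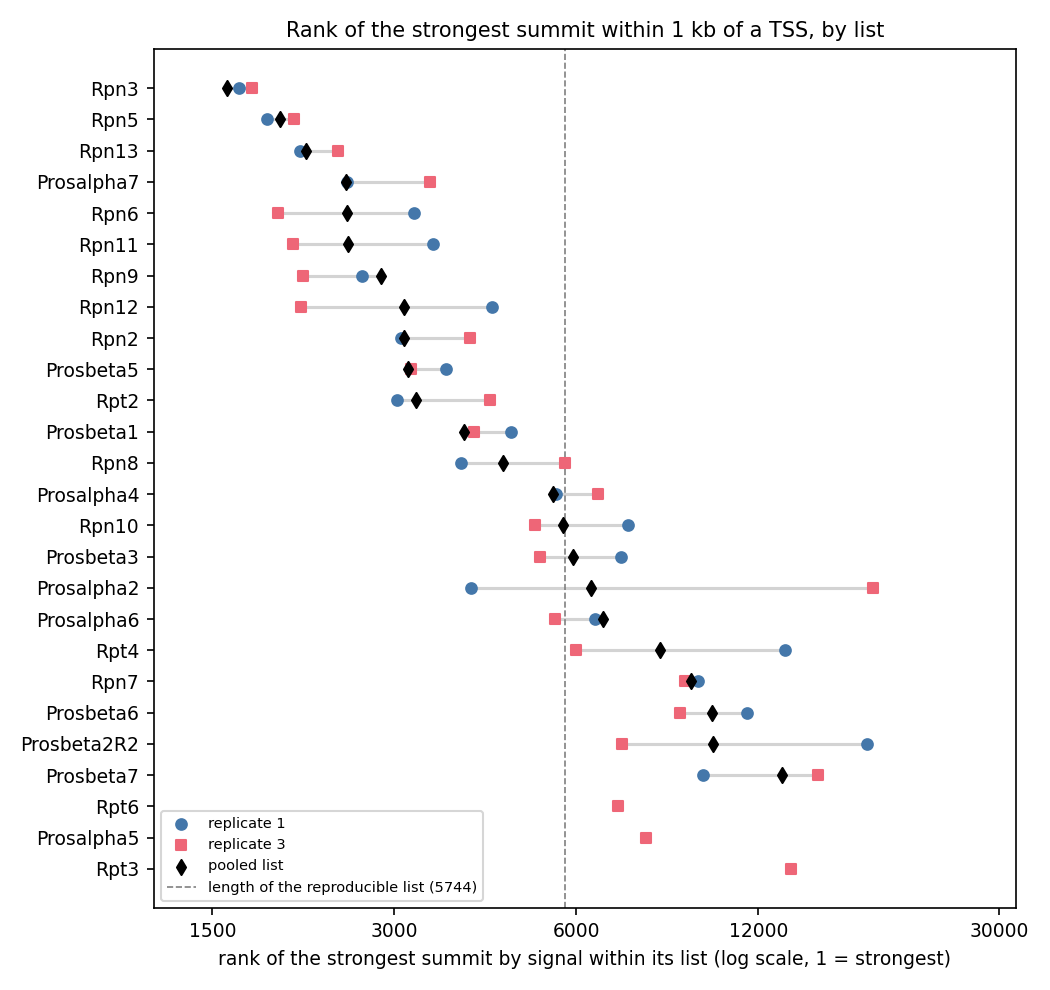
Rank of the strongest summit within 1 kb of a TSS (horizontal log axis, 1 is strongest) in replicate 1 (circles), replicate 3 (squares) and the pooled list (diamonds) for each member with a summit in any list. Rpn3 and Rpn5 are close together in all 3 lists, Prosalpha2 spans ranks 4023 to 18614, and Rpt6, Prosalpha5 and Rpt3 have a replicate 3 point alone.

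Each replicate taken alone gave similar counts. Among the 5744 strongest peaks of each, as many as the reproducible list holds, replicate 1 reached 15 members (31.2%, against 27.6% of all protein-coding genes) and replicate 3 reached 16 (33.3%, against 28.8%). Of the 48 members, 13 were reached by both replicates. The share of all protein-coding genes reached by both was not counted, so these 13 cannot be read against a background. With all 30000 peaks, replicate 1 reached 23 members (47.9%, against 49.1% of all genes) and replicate 3 reached 26 (54.2%, against 50.3%). No paralogue was among the strongest peaks of either replicate.

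The R- and T-suffixed paralogues were nearly empty of summits. Prosbeta2R2 was the exception, with a pooled signal of 115.3 (rank 10100), 40.6 in replicate 1 (rank 18162) and 72.3 in replicate 3 (rank 7145). Its summit was 71 bp upstream of its own start and 58 bp from that of CG1116, so it cannot be given to either gene. The other 15 had no summit in any list, namely Prosalpha1R, Prosalpha3T, Prosalpha4T1, Prosalpha4T2, Prosalpha6T, Prosbeta2R1, Prosbeta4R1, Prosbeta4R2, Prosbeta5R1, Prosbeta5R2, Rpn12R, Rpn13R, Rpt3R, Rpt4R and Rpt6R. The median distance from a paralogue's start to the nearest pooled summit was 6537 bp, against 109 bp for unsuffixed subunits and 1260 bp for all protein-coding genes.

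The 16 paralogues duplicate 12 unsuffixed subunits, and the summits of these 12 are given beside those of the rest. Of the 12, 4 had a reproducible summit (Prosalpha4, Prosbeta5, Rpn12 and Rpn13), 2 had a pooled-list summit and 6 had none in the pooled list. Of the 20 subunits without a suffixed copy, 11 had a reproducible summit, 5 a pooled-list summit and 4 none. Over all protein-coding genes 27.9% had a reproducible summit and 48.3% one in the pooled list, so the 12 lay near the background. The difference between the 12 and the 20 was not tested, and 1 of the 6 is Prosalpha1.

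Where a member had a reproducible summit, it was of moderate strength. The median signal over the 15 was 279.7 and their range 184.3 to 403.9, whereas the median over all 3888 genes with a reproducible summit was 329.7. Of the 15, 3 lay above that median (Rpn3, Rpn5 and Rpn13). A stronger summit than that of Rpn3 was linked to 1407 genes, or 36.2% of those with one. By group, the median signal was 316.1 over the 7 lid genes, 279.7 over the 3 base non-ATPase genes and 259.0 over the 4 core genes.

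Most member summits lay upstream of the start, as did most over all genes. Side and distance were taken from the nearest annotated start of the gene. Of the 15, 12 were upstream, 2 downstream and 1 at the TSS, and 11 were within 150 bp. Rpn6 and Rpt2 count as upstream through an internal start, and their summits lay downstream of the outermost start. Over all genes with a reproducible summit, 72.9% had it upstream and 52.9% within 150 bp, and the difference was not tested. The median distance regardless of side was 96 bp, against 137 bp over all genes with a reproducible summit. By annotation, 6 summits were intergenic, 5 in a 5′ untranslated region and 4 in an intron of a protein-coding gene.

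**Figure D3:**
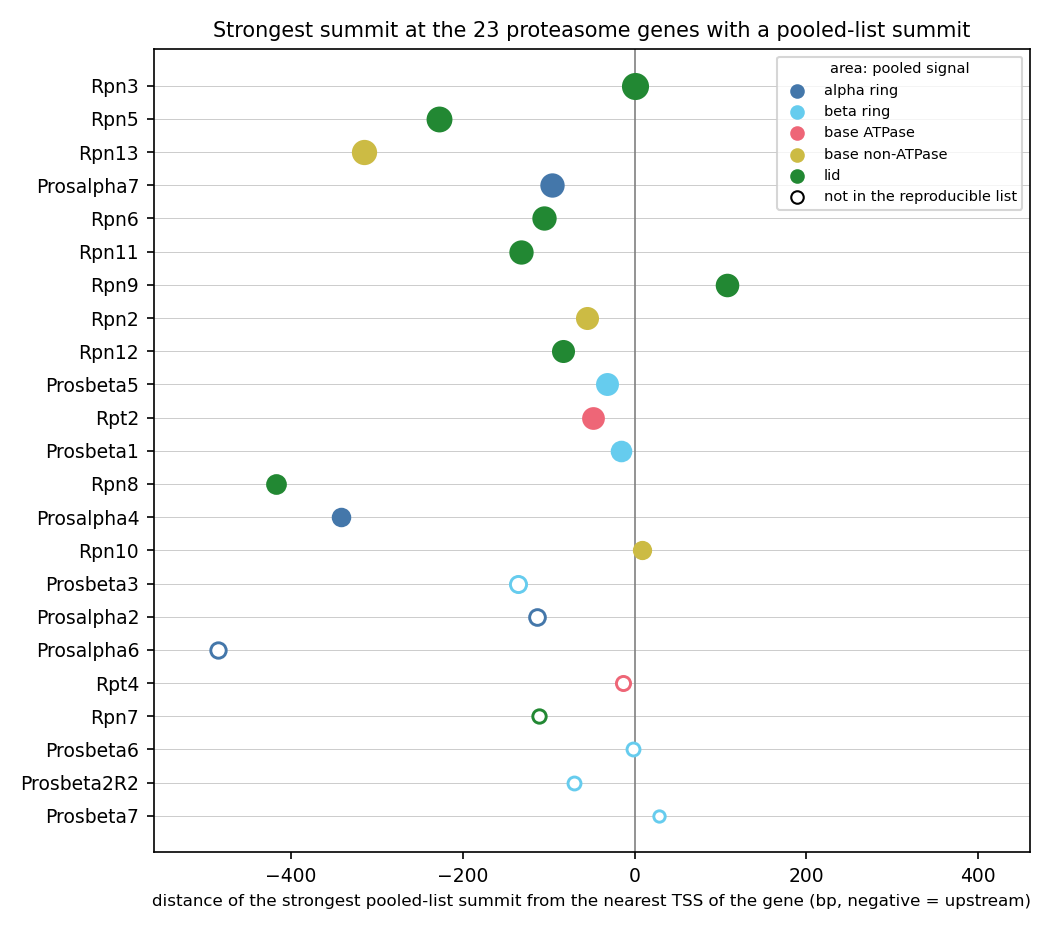
Distance of the strongest pooled-list summit from the nearest TSS (bp, negative is upstream) for the 23 members with one, ordered by pooled signal, with marker area in proportion to signal and colour by part of the particle. Filled markers are in the reproducible list, and 3 of these lie more than 300 bp upstream (Rpn13, Rpn8 and Prosalpha4).

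The promoters of unsuffixed subunits were often shared with a neighbour. A start of another protein-coding gene on the opposite strand was sought within 1 kb upstream of any annotated start, internal ones included. It was found at 22 of 32 unsuffixed subunits (68.8%) and at 4 of 16 paralogues (25%), against 36.2% of all genes. Rpn8 is counted through Slik, which starts 325 bp from an internal Rpn8 start and not within 1 kb of the Rpn8 summit. Reproducible summits were found at 12 of the 22 (54.5%) and at 3 of the 10 without such a partner (30%). Over all protein-coding genes the same shares were 43.9% and 18.8%. For 12 of the 15 members the summit also lay within 1 kb of another gene's start, and for 4 (Prosalpha4, Rpn13, Rpn5 and Rpn9) that other start was nearer. Over all genes with a reproducible summit, 56.5% shared it in this way. Which gene of a pair the factor acts on was not tested.

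Words of general promoter factors were found in promoters of unsuffixed subunits and in none of the paralogues, a difference that was not tested. TATCGATA lay in the promoter window, from 250 bp before to 50 bp after the outermost start, of 12 of 32 unsuffixed subunits (37.5%) and of 0 of 16 paralogues, against 9.36% of all promoters of that length. GGTCACACT lay in 5 of 32 (15.6%) and in 0 of 16, against 6.05%. TATCGATA lay in 6 of 14 unsuffixed core genes and in 6 of 18 regulatory genes. In the printed Prosbeta2 promoter the middle of the word lies 6 bp before the start, and in Rpn7 both words lie just after it. Prosbeta2 had no summit in any list, and Rpn7 none in the reproducible list.

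The share with a summit was no higher among subunits that held the DREF word. Of the 12 unsuffixed subunits with TATCGATA, 5 had a reproducible summit (41.7%), and of the 20 without it, 10 had one (50%). Over all protein-coding genes these shares were 41.8% and 26.4%. Within 100 bp of the reproducible summits, TATCGATA was found at 2 of 15 members (Rpn3 and Rpn9), 80 and 78 bp from the summit, against 6.93% of all reproducible promoter summits. GGTCACACT was found at 1 of 15 (Rpn9), against 3.39%.

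**Figure D4:**
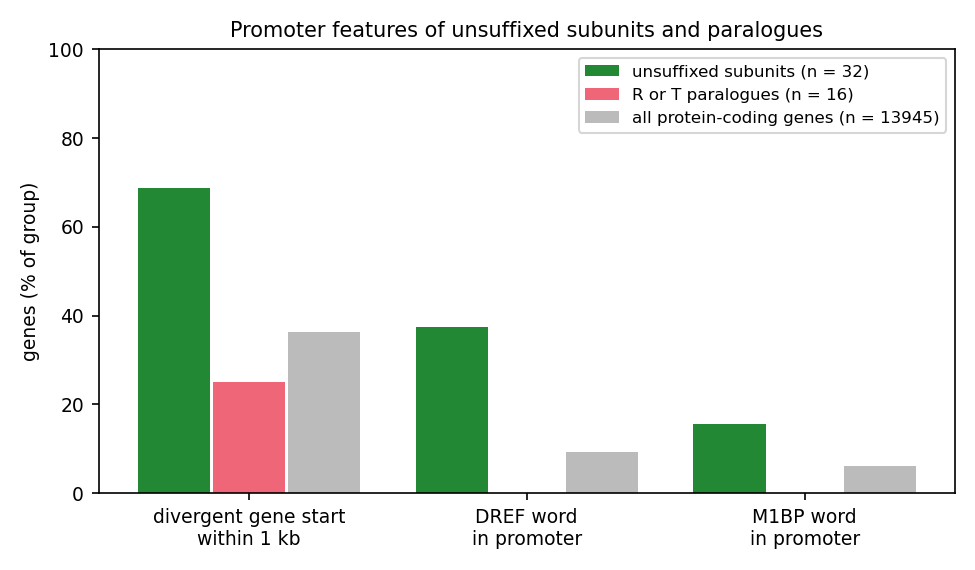
Share of genes (percent, vertical axis) with a divergent gene start within 1 kb, the DREF word or the M1BP word in the promoter, for unsuffixed subunits, R or T paralogues and all protein-coding genes. Unsuffixed subunits stand at 68.8%, 37.5% and 15.6%, paralogues at 25%, 0% and 0%.

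Of the words of the E(spl) class, CACGTG and CACGCG were not found at these genes. They lay in 0 of 48 promoter windows, against 4.2% and 6.12% of all promoters, and within 100 bp of 0 of 15 reproducible summits, against 3.79% and 8.36% of all promoter summits. The N-box CACNAG lay at 2 of 15 summits (Rpn10 and Rpn6; 13.3% against 24.9%). CACNAG lay in 10 of 32 unsuffixed promoters (31.2%) and in 7 of 16 of the paralogues (43.8%), against 29.7% of all. Any E-box, CANNTG, which takes in CACGTG, lay at 8 of 15 summits (53.3% against 61.7%). The absence of a word says only that these letters are not in the window.

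The remaining words were those of GAGA factor and of Cnc, the fly relative of the mammalian factors that raise proteasome genes under stress. GAGAGAG lay in 0 of 32 unsuffixed promoters and in 2 of 16 of the paralogues (Prosbeta2R2 and Rpt4R), against 5.87% of all promoters. TGACNNNGC, the antioxidant response element, lay in 5 of 32 unsuffixed promoters (Prosalpha2, Prosbeta3, Rpn1, Rpn7 and Rpt6; 15.6% against 8.63%), in 1 of 16 of the paralogues (Prosbeta4R2, 6.25%) and at 0 of 15 summits (against 6.04%). At Prosbeta3 and Rpn1 it overlapped GGTCACACT by several bases.

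Other genes of the ubiquitin and proteasome system were read from lists of symbols grouped by role. Of 79 listed symbols 63 matched the annotation, and 30 of them (47.6%) had a reproducible summit, with a median signal of 356.0. Over all protein-coding genes the share was 27.9% and the median signal 329.7, and over unsuffixed subunits they were 46.9% and 279.7. The counts of each list below are read against the same 27.9%, and none was tested. Among assembly and associated factors 2 of 10 had one, led by Pomp, a proteasome maturation factor (378.5, 218 bp upstream, ranks 1904 and 2113 in replicates 1 and 3), and DUBAI (286.8).

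Genes for ubiquitin and activating enzymes had 6 of 10. They were led by Uba2, of the SUMO activating enzyme (927.4), RpS27A, a ubiquitin fusion with a ribosomal protein (729.8), and Uba3, of the NEDD8 activating enzyme (425.9). Conjugating enzymes had 7 of 13, among them eff (414.0) and Ubc10 (413.5). Cullins and their partners had 7 of 17, led by SkpA, an adaptor of cullin ligases (849.0, 971 bp upstream), EloB (418.5) and EloC (351.2).

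Shuttle and extraction factors had 4 of 8, led by p47 (390.4), Ufd4 (366.5) and Ubqn (288.4). Regulators of proteasome genes had 4 of 5, led by Keap1, the inhibitor of Cnc (829.9, 872 bp upstream), cnc itself (441.7, 26 bp downstream) and Pngl (237.2). The cnc summit ranked 1609 in replicate 1 and 944 in replicate 3. The strongest of these genes exceeded every proteasome subunit in signal, Rpn3 included.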

How the data were processed

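Peak lists from 2 ChIP-seq samples were used. The authors deposited 4 narrowPeak lists on dm6: 30000 peaks for each replicate and for the pooled replicates, each made with a control, and a reproducible (IDR) list of 5744 peaks, per the deposited file descriptions. The IDR rows equal the 5744 pooled rows of highest signal. The deposited signal is a value per peak within its list, and no list was scaled to another. The deposited −log10 q-value was capped at 4.09 for every IDR peak and was not used to rank. The sources used here do not name the aligner, the peak caller or the IDR cutoff.

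With Python 3.11.15, each peak's summit was linked to every protein-coding gene with a TSS within 1 kb (Ensembl release 115, 19607 TSSs), and the strongest was kept. Overlapping peaks were not merged. No peak or gene lay beyond an arm's end in the RefSeq copy of the assembly. Summits set beyond the peak's end were moved to its last base (4 IDR peaks). The 8 words were sought on both strands. Linking was tested on simulated data. No statistical test was made. The named genes were all members and the 3 strongest genes of each other list. Some genes that this rule or a shared promoter would name are not reported here. Members, lists and words were chosen with earlier results of these data known. Alternatives changed the window, the TSS, the gene assignment, the replicate, the threshold and the overlap (at least 1 bp, or 50% of the peak).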

Additional observations from a re-analysis of the deposited data

How the results depend on the processing

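Counts of members were recomputed under 10 alternatives for the reproducible list and 8 for the pooled list. Paralogues with a reproducible summit stayed at 0 under each of the 10, and without Prosalpha1R, which lies in repeated sequence. Requiring the peak to overlap the TSS lowered the members from 15 to 9, all unsuffixed, with 6 of 18 in the regulatory and 3 of 14 in the core particle. All genes fell with them, from 27.9% to 19.1%. The stronger part of the reproducible list, its upper 50% by signal, kept 7 members, 6 regulatory and 1 core, against 16.9% of all genes. Counting each summit for the nearest gene alone gave 11 members, against 21.2% of all genes. A window of 2 kb gave 18, against 33% of all genes, with 12 of 18 in the regulatory and 6 of 14 in the core particle. Requiring overlap with the strongest peaks of both replicates gave 13 members at 1 bp and 12 at 50% of the peak. All genes then stood at 23.5% and 21.5%. Without replicate 1 or 3, members ranged from 15 to 16, unsuffixed subunits from 15 to 16, core genes were at 5 and regulatory genes ranged from 10 to 11. The pooled-list count ranged from 19 to 28 of the 48 members over its 8 alternatives. The share of all genes ranged with it, from 36.6% to 54.1%. The median signal of members was 284.0 with a window of 2 kb, 317.4 in the stronger part of the list, 294.4 and 287.0 where both replicates had to overlap the peak by 1 bp or by 50% of it, and 120.8 to 161.3 on the scales of single replicates. In each it lay below that of all genes. TATCGATA was found within 50 bp of the summit at 0 of 15 members, against 3.72% of all reproducible promoter summits. Within 100 bp it was found at 2, against 6.93%, and within 250 bp at 5, against 11.8%. The differences were not tested. Depth is unknown and was not weighed.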
